A study of Mus musculus with 8 samples.

Results

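The cyclins, kinases and kinase inhibitors of the G1 phase were followed in sorted mouse skin tumour cells after deletion of Twist1 alone or of Twist1 together with p53. The 10 genes are the D-type cyclins Ccnd1, Ccnd2 and Ccnd3, the E-type cyclins Ccne1 and Ccne2, the kinases Cdk4 and Cdk6, the inhibitors Cdkn1b and Cdkn1c of the CIP/KIP family, and the inhibitor Cdkn2b of the INK4 family. The genes were picked by name, with no rule on their values, although earlier results of these data were known. Every probe set whose platform annotation gives 1 of these symbols alone was taken, 26 of the 34945 probe sets with a single symbol in the Twist1 table and 23 of 28864 in the Twist1/p53 table. No probe set with several symbols included a member. All 10 genes were above the filter on low values (a log2 level of 4.49 in the Twist1 table and 3.98 in the Twist1/p53 table) and were tested in both comparisons.

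Skin tumours had been induced with the carcinogen DMBA and the promoter TPA, and tumour-bearing mice of all 4 groups received 5 doses of 2 mg tamoxifen. The Twist1 deletion group carried K14CreER:Twist1fl/fl and its controls Twist1fl/fl without the Cre transgene. The Twist1/p53 deletion group carried K14CreER:Twist1fl/fl:p53fl/fl and its controls Twist1fl/fl:p53fl/fl, again without Cre. CreER is a recombinase that tamoxifen activates, and the keratin 14 promoter expresses it in basal cells of stratified epithelia, so other cell types of the tumour keep the floxed genes. The mice were littermates of mixed strain background, and their ages are not given in the sources used here. Live Epcam-positive cells without lineage markers were sorted, and total RNA was hybridised to Affymetrix arrays, 2 per group. The labels do not say that each array is a separate mouse, so p-values measure the spread between these samples, which may be technical. The Twist1 groups and the Twist1/p53 groups lie on different array types, were normalized separately and are held in separate tables, so a level in one table has no counterpart in the other, and differences were taken within a table before the deletions were set against each other.

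D-type cyclins are the part of the cell-cycle engine that answers growth signals. They activate CDK4 and CDK6, which phosphorylate the retinoblastoma protein and its relatives, release E2F transcription factors, and so allow the E-type cyclins with CDK2 to start DNA replication. INK4 proteins such as p15, the product of Cdkn2b, bind CDK4 and CDK6 and keep the D-type cyclins off, whereas p27 and p57, the products of Cdkn1b and Cdkn1c, inhibit cyclin E-CDK2 complexes. In mouse skin the cyclin D-CDK4/6 step is known to contribute to the growth of papillomas that carry activated Ras, the usual lesion after DMBA and TPA. TWIST1 binds E-boxes, DNA words of the form CANNTG, through its basic helix-loop-helix domain.

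The arrays were checked before the members were read. Twist1 itself, which tests the labels, was at 5.20 and 7.18 with the gene intact against 3.81 and 3.90 after its deletion. In the Twist1/p53 table it was at 6.15 and 6.04 in controls against 4.82 and 5.01. The first difference of -2.33 (SE 0.64) did not pass (limma adjusted p = 0.50), and its deletion arrays were under the filter level of 4.49. The second, of -1.19 (SE 0.14), passed (adjusted p = 0.041). The female transcript Xist was high in every control array and low in every deletion array, and the Y-linked Eif2s3y had the opposite order. The labels give no sex, so within each comparison the deletion, the sex of the mice and the presence of Cre cannot be told apart. In the Twist1 table the poly-A spike-in probe sets averaged 8.22 and 9.14 in control arrays against 9.49 and 10.53 after deletion. The 3' excess of the Gapdh probe sets was 0.04 and 0.03 against 0.22 and 0.30, and that of beta-actin 0.63 and 0.63 against 0.95 and 0.78. The deletion arrays thus stood apart in these measures too, while the hybridisation spike-ins overlapped. In the Twist1/p53 table the hybridisation spike-ins averaged 9.51 and 9.59 against 9.73 and 9.82, and the poly-A spike-ins 3.73 and 3.75 against 3.76 and 3.77. The Gapdh and beta-actin measures overlapped there. The spread between the arrays of a group, taken as the SD of their differences over genes, was 0.33 for Twist1 controls, 0.51 for Twist1 deletion arrays, and 0.19 and 0.47 for those of the Twist1/p53 table.

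RefSeq promoter entries of assembly GRCm38.p6 matched 6 of the 10 genes with 7 start sites (2 of them of Ccnd3). The windows of the kinases Cdk6 and Cdk4 are shown because both hold the E-box word CACGTG, while after Twist1 deletion the arrays of the groups did not overlap for Cdk6 and overlapped for the probe set standing for Cdk4. Each is the 250 bases upstream of the start site, 5' to 3' on the plus strand, at chr5:3343643-3343892 for Cdk6 and chr10:127063285-127063534 for Cdk4, with every CANNTG in capitals.
Cdk6: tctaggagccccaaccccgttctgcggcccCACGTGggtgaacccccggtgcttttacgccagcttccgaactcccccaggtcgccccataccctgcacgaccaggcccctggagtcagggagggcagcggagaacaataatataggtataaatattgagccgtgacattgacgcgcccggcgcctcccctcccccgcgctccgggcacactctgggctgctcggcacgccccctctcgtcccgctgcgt
Cdk4: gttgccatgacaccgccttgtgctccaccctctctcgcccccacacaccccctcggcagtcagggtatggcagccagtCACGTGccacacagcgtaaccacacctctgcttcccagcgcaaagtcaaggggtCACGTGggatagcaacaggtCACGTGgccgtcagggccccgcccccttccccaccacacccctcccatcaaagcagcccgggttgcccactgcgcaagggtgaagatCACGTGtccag
The Cdk6 window holds 1 copy of CACGTG and the Cdk4 window holds 4. CACGTG reads the same on both strands and is itself a CANNTG. Of the other windows only that of Cdkn2b holds a CANNTG, in the form CAAGTG, so 3 of 7 windows had a match against 66.2% of the 32851 windows of equal length in the table. CACGTG alone occurs in 6.02% of them. The E-box words CATATG and CATCTG, the latter searched on both strands, were in 0 of the 7 windows, against 3.46% and 14.4% of all windows. The E2F words TTTCCCGC, TTTGGCGC, TTTGCCGC and TTTCGCGC, searched on both strands, were in 0 of the 7 windows and in 1.86% of all windows. These matches describe letters in short windows and do not show binding by TWIST1 or by any other protein.

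No member passed the test in either comparison. After Twist1 deletion 0 of 10 members had a limma adjusted p under 0.05, where 0.0344% of 14554 genes did. With both genes deleted the count was again 0 of 10, against 1.8% of 13667 genes. At an unadjusted p under 0.05, on the probe sets standing for the genes, stood 2 members after Twist1 deletion, Ccnd2 and Cdk6, against 9.17% of all genes. After Twist1/p53 deletion 0 members did, against 21.2%. Other probe sets of Ccnd1, Ccnd2 and Ccnd3 reached an unadjusted p of 0.033, 0.021 and 0.043 there in the limma fit over all probe sets. Their adjusted p were 0.19 or higher. The groups did not overlap for 4 members in the Twist1 comparison (Ccnd2 higher, with Ccnd3, Ccne2 and Cdk6 lower), against 42.5% of all genes, of which 17.9% were higher and 24.7% lower. For the Twist1/p53 arrays the number was also 4 (Ccnd2 and Ccnd3 higher, Ccne1 and Cdkn2b lower), against 54.3% of all genes, with 24.5% higher and 29.8% lower. These shares are close to the background. The median log2 difference over the 10 genes was 0.05 and 0.01, beside -0.03 and -0.02 over all genes, and the median absolute difference was 0.23 and 0.20, beside 0.18 in each table. In bulk RNA of sorted cells, fewer cells of a type and less RNA per cell cannot be told apart.

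**Figure D1:**
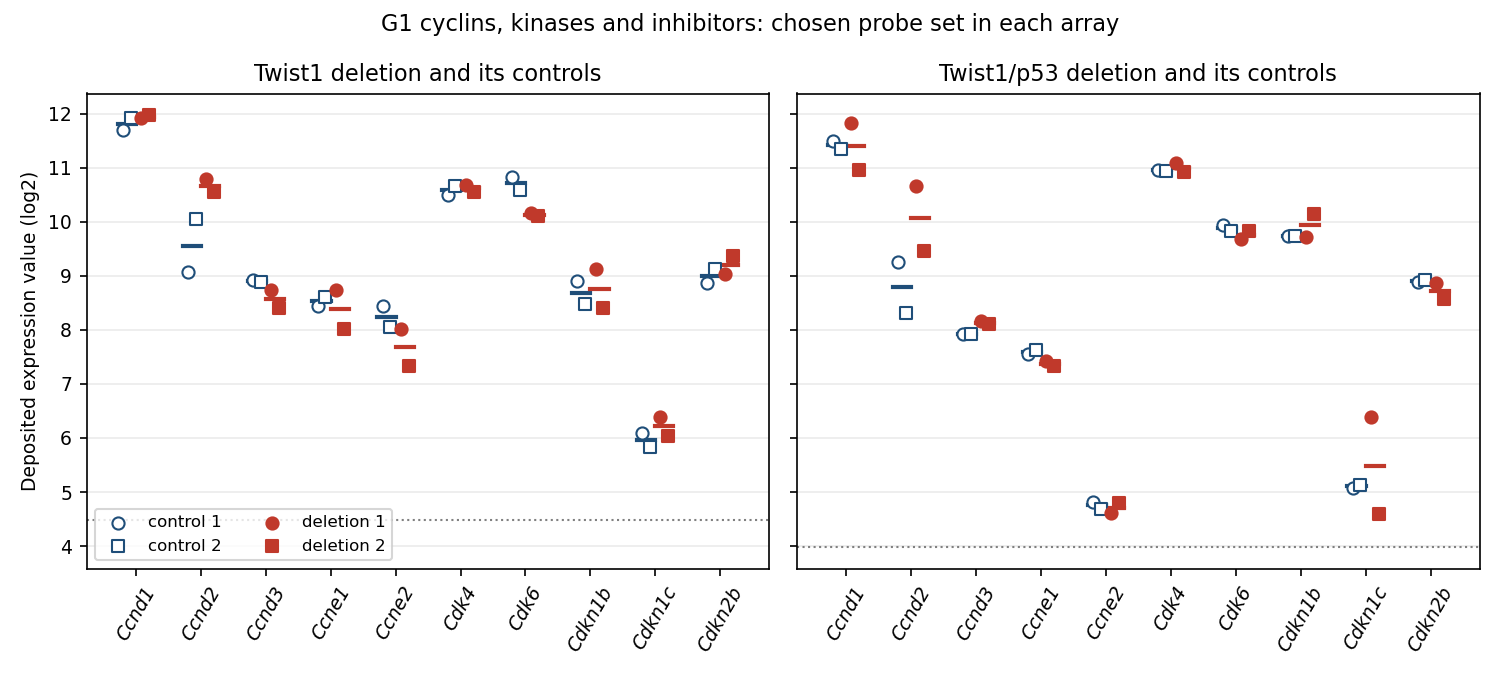
Deposited log2 value (vertical axis) of the probe set standing for each of the 10 genes (horizontal axis), for the Twist1 comparison on the left and the Twist1/p53 comparison on the right. Open blue symbols are control arrays, filled red symbols deletion arrays, short bars group means and the dotted line the filter level; levels are not comparable between panels or between genes. Ccnd2 has the widest gap between group means in both panels, and the Cdkn1c deletion arrays on the right lie at 6.38 and 4.60 on either side of their controls.

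Ccnd2 showed the largest difference among the members in both comparisons. It encodes cyclin D2, which growth factor and MYC signals are known to induce in several tissues. Control arrays read 9.06 and 10.06 and Twist1 deletion arrays 10.79 and 10.55, so both deletion arrays were above both controls. The difference of 1.11 on the log2 scale (2.16-fold, SE 0.34, 95% interval 0.23 to 1.99, n = 2 per group) had an unadjusted p of 0.0232 in limma's test and did not pass after adjustment (adjusted p = 0.52). It was larger in absolute size than the difference of 98.3% of the genes tested. On this probe set, which stands for Ccnd2, the 2 controls lay further apart than those of 98.3% of genes. Its difference was 0.61 without control 1 and 1.61 without control 2. The gap between its controls, 0.99, was the widest among the 7 Ccnd2 probe sets. The narrowest was 0.36, on a probe set with a difference of 1.35.

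With both genes deleted, Ccnd2 was at 9.26 and 8.32 in control arrays and at 10.67 and 9.46 after deletion. The groups did not overlap, but the higher control and the lower deletion array were close. The log2 difference of 1.28 (2.42-fold, SE 0.51, 95% interval -0.08 to 2.63) did not pass (limma adjusted p = 0.26). Ccnd2 varied more between replicate arrays here than nearly all other genes, with a gap between the controls wider than that of 99.7% of genes and a gap between the deletion arrays wider than that of 97.2%. Without deletion array 2 the difference was 1.88 and passed (adjusted p = 0.0066, the lone deletion array being assumed to vary like the controls), and without deletion array 1 it was 0.67 and did not. With deletion array 2 left out 24.6% of all genes passed, and with deletion array 1 left out 27.6%, which is the background for each such call given below.

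All probe sets of Ccnd2 lay in the same direction. In the Twist1 table each of its 7 probe sets was higher in both deletion arrays than in both controls, where 17.4% of all probe sets were, with differences from 0.81 to 1.50. The largest belonged to a probe set at 8.47 and 8.89 against 10.03 and 10.34, and the smallest to one at 8.59 and 9.43 against 9.89 and 9.75. Their limma adjusted p values over all probe sets lay between 0.22 and 0.54. In the Twist1/p53 table all 6 probe sets had higher means after deletion, by 1.17 to 1.48, and 4 of the 6 were higher without overlap, against 24.2% of all probe sets, with adjusted p between 0.19 and 0.35. The array pattern was shared as well: every probe set read lower in control 2 than in control 1 and lower in deletion array 2 than in deletion array 1. Probe sets of 1 gene measure the same RNA, so they are not replicates of the condition.

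**Figure D2:**
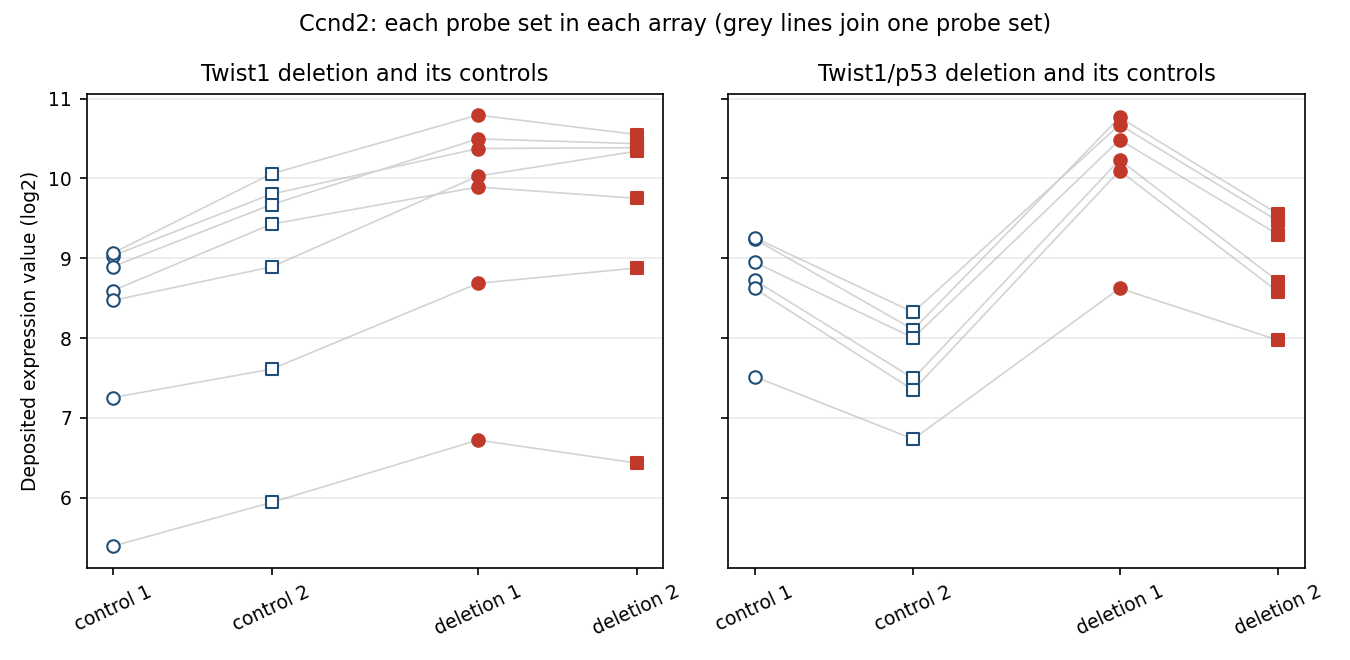
Deposited log2 value (vertical axis) of every Ccnd2 probe set in each array (horizontal axis), with grey lines joining the readings of 1 probe set, for the Twist1 table (7 probe sets, left) and the Twist1/p53 table (6 probe sets, right). On the left all deletion arrays lie above the controls, and on the right the lines run parallel through a low control 2 and a high deletion array 1.

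Ccnd1, which encodes cyclin D1, the D-type cyclin that Ras and MAPK signalling induces in epithelial tumours, was near its controls. Its values were 11.70 and 11.93 for Twist1 controls and 11.92 and 11.98 after deletion, an overlap with a log2 difference of 0.13 (SE 0.12, limma adjusted p = 0.76), and its other probe sets overlapped too (-0.02 and 0.23). Among the Twist1/p53 groups it read 11.50 and 11.36 against 11.83 and 10.96, with 1 deletion array above and 1 below both controls (difference -0.03, SE 0.30, adjusted p = 0.96). The sign of that difference depended on the array: it was -0.47 without deletion array 1 (adjusted p = 0.0052) and 0.40 without deletion array 2 (adjusted p = 0.0073), both past the threshold in opposite directions. The 3 probe sets also spread there, from -0.67 for the single one whose groups did not overlap (11.13 and 11.04 against 10.76 and 10.08), through -0.28 to -0.03.

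Ccnd3, which encodes cyclin D3, had opposite signs in the comparisons. After Twist1 deletion it was at 8.74 and 8.41 against 8.93 and 8.89 in the controls, so both deletion arrays were lower (difference -0.34, SE 0.17, limma adjusted p = 0.61). With p53 deleted too it was at 8.16 and 8.11 against 7.93 and 7.92, so both were higher, by a small amount (0.21, SE 0.13, adjusted p = 0.41). Its 3 probe sets disagreed in the Twist1 table, where the other two differed by 0.41 and -0.03, and the mean over them differed by 0.014. Both probe sets of the Twist1/p53 table were higher, by 0.21 and 0.23, the second of them at levels of 3.63 to 3.92, under the filter.

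The E-type cyclins, which activate CDK2 at the entry into S phase, had lower means in both deletions without passing the test. Ccne2 was at 8.44 and 8.05 for Twist1 controls and 8.02 and 7.34 after deletion, so the groups did not overlap, although the upper deletion array lay just under the lower control (1.48-fold lower, log2 difference -0.57, SE 0.29, limma adjusted p = 0.61). Without deletion array 1 that difference was -0.91 and without deletion array 2 it was -0.23, and without control 1 it was -0.37. On the Twist1/p53 arrays Ccne2 was at 4.82 and 4.69 against 4.61 and 4.80 (-0.05, SE 0.12, adjusted p = 0.85). Those levels are dim: the 23 nonspecific control probe sets of that table ran from 2.88 to 7.71 with a median of 3.55. Ccne1 read 8.45 and 8.61 against 8.75 and 8.01 in the Twist1 table, with the deletion arrays on either side of the controls (-0.15, SE 0.28, adjusted p = 0.88), as in its other probe set (-0.19). For Ccne1 the Twist1/p53 deletion arrays were at 7.42 and 7.33 against 7.56 and 7.62, lower in both deletion arrays by a mean of -0.22 (SE 0.14, adjusted p = 0.45).

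Of the kinases that D-type cyclins activate, Cdk6 had lower readings in every Twist1 deletion array while the probe set standing for Cdk4 overlapped its controls. Cdk6 was at 10.84 and 10.59 for Twist1 controls and at 10.16 and 10.10 after deletion. Both deletion arrays were below both controls and close to each other. The log2 difference of -0.58 (1.50-fold lower, SE 0.14, 95% interval -0.94 to -0.22) did not pass (limma adjusted p = 0.46). Its unadjusted p of 0.00877 was the smallest among the probe sets standing for the members. In the limma fit over all probe sets the smallest was 0.00038, for a Ccnd2 probe set, beside 0.0081 for Cdk6. All 3 Cdk6 probe sets were lower without overlap, by -0.60 to -0.41, where 23.3% of all probe sets were lower without overlap. Leaving out any 1 array kept the difference between -0.71 and -0.46.

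After Twist1/p53 deletion Cdk6 overlapped its controls, at 9.94 and 9.84 against 9.68 and 9.84 (log2 difference -0.13, SE 0.11, limma adjusted p = 0.55). Its 3 probe sets had slightly lower means there, by -0.13 to -0.09, and all overlapped, where 26.7% of all probe sets were lower without overlap. Cdk4 read 10.50 and 10.67 against 10.68 and 10.55 in the Twist1 comparison (0.03, SE 0.13, 95% interval -0.30 to 0.37, adjusted p = 0.95). In the Twist1/p53 arrays it overlapped again, at 10.97 and 10.94 against 11.09 and 10.93 (0.05, SE 0.08, 95% interval -0.16 to 0.27, adjusted p = 0.77). The other two Cdk4 probe sets of each table split. After Twist1 deletion one was lower without overlap, at 9.58 and 9.73 against 9.51 and 9.57 (-0.12, SE 0.15), and one overlapped (0.10). After Twist1/p53 deletion the first was higher without overlap, at 10.13 and 10.08 against 10.31 and 10.20 (0.15, SE 0.09), and the other overlapped (0.005).

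**Figure D3:**
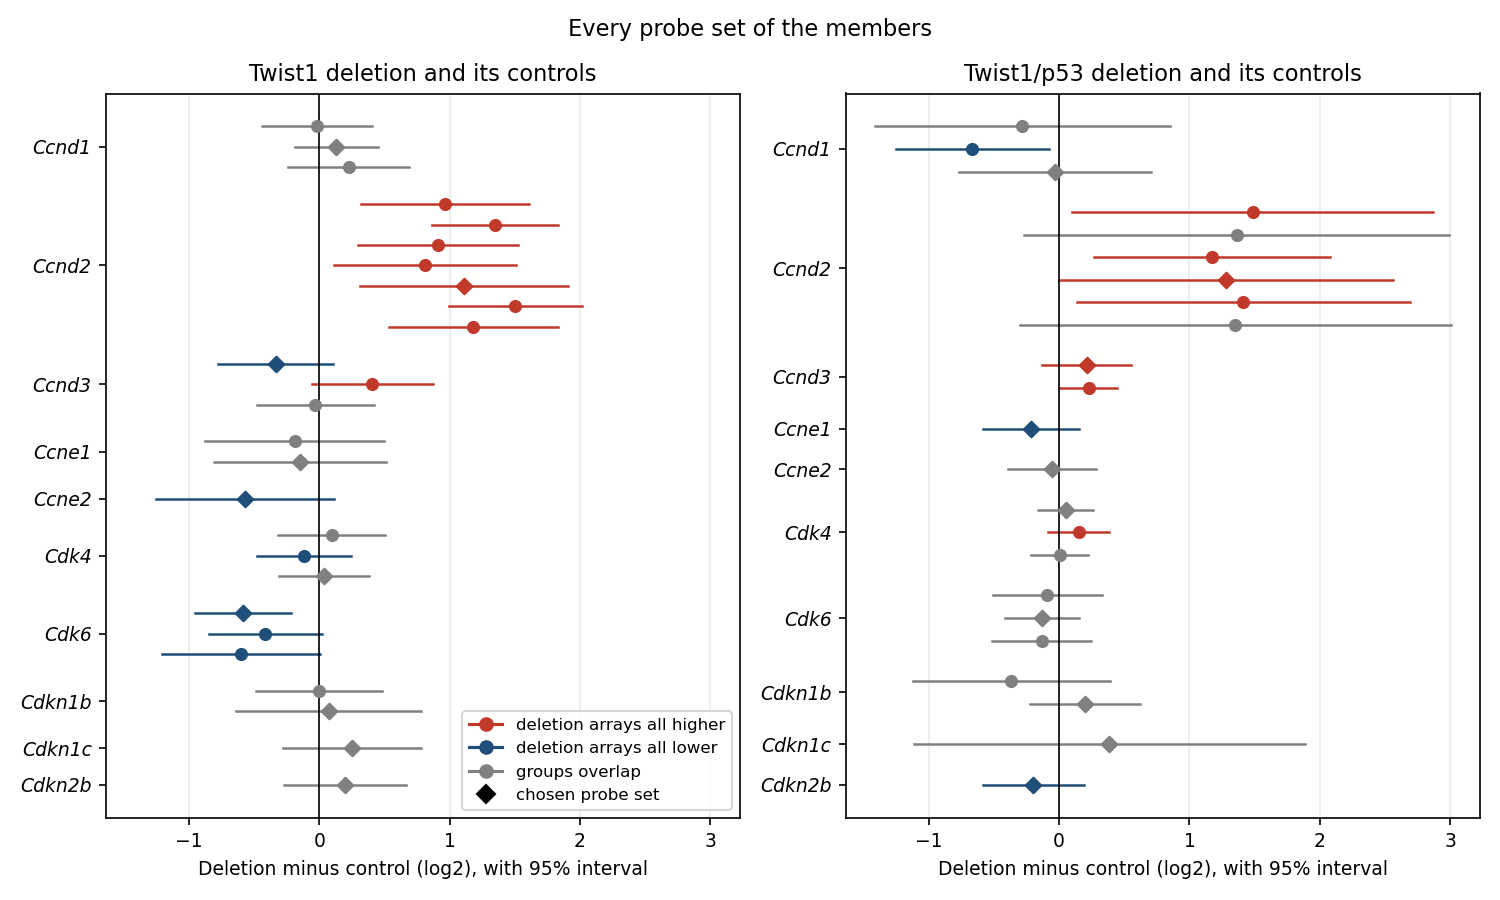
Deletion minus control (log2, horizontal axis) with its 95% interval for every probe set of the 10 genes (vertical axis), for the Twist1 comparison with 26 probe sets on the left and the Twist1/p53 comparison with 23 on the right, from the limma fit over all probe sets. Red marks probe sets with all deletion arrays above the controls (8 left, 7 right), blue all below (6 left, 3 right), grey overlapping groups (12 left, 13 right), and diamonds the probe set standing for the gene. The Ccnd2 probe sets lie to the right of 0 in both panels and the Cdk6 probe sets to the left of 0 on the left.

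The CIP/KIP inhibitors varied between arrays of a group. Cdkn1b, which encodes p27, was at 8.91 and 8.47 for Twist1 controls and 9.13 and 8.40 after deletion, with the deletion arrays on either side of the controls (log2 difference 0.07, SE 0.30, limma adjusted p = 0.96), and its other probe set differed by -0.0017. On the other array type Cdkn1b read 9.74 and 9.74 against 9.73 and 10.15, so 1 deletion array was at the controls' level and 1 above it (0.20, SE 0.16, adjusted p = 0.55). Without deletion array 1 that difference was 0.41 and passed (adjusted p = 0.0098), and without deletion array 2 it was -0.01. Its other probe set had the opposite sign, at 9.24 and 9.37 against 9.36 and 8.52 (-0.37), with overlap.

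Cdkn1c, an imprinted gene that encodes p57, spread widely between the Twist1/p53 deletion arrays. Its Twist1 controls were at 6.09 and 5.83 and their deletion arrays at 6.39 and 6.04, an overlap (log2 difference 0.25, SE 0.21, limma adjusted p = 0.73). The Twist1/p53 controls agreed closely, at 5.08 and 5.13, while the deletion arrays lay far apart, at 6.38 and 4.60 (0.39, SE 0.60, adjusted p = 0.76). All 4 values lie within the range of the nonspecific control probe sets of that table, 2.88 to 7.71 with a median of 3.55. Other genes named here also lie within that range in the Twist1/p53 table, among them Ccne1, Twist1, Cdkn2d, Ambra1 and Mycl. Each deletion array alone passed against the controls with the opposite sign, by -0.51 without deletion array 1 (adjusted p = 0.035) and by 1.28 without deletion array 2 (adjusted p = 0.0013).

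Cdkn2b, the INK4 gene that TGF-beta is known to induce in keratinocytes, differed little. Twist1 controls were at 8.87 and 9.13 and deletion arrays at 9.03 and 9.36, with overlap (log2 difference 0.20, SE 0.19, limma adjusted p = 0.76). Twist1/p53 deletion arrays were at 8.86 and 8.57 against 8.89 and 8.93, with 1 deletion array just under the controls and the other lower (-0.20, SE 0.15, adjusted p = 0.51). Without deletion array 1 the difference of -0.34 passed (adjusted p = 0.043), and without deletion array 2 it was -0.05 (adjusted p = 0.77).

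Whether the deletions differed from each other was tested by subtracting the Twist1 change from the Twist1/p53 change, over probe sets present on both array types. None of the 10 members passed, where 0.173% of 13296 genes did, and their limma adjusted p ran from 0.44 to 0.99. At an unadjusted p under 0.05 stood 1 member, Ccnd3, against 10.4% of genes. For Ccnd3 the changes of -0.34 and 0.21 differed by 0.55 (SE 0.21, 95% interval 0.05 to 1.04, adjusted p = 0.44). For Cdk6, on the probe set with the highest mean rank over both tables, the changes of -0.41 and -0.13 differed by 0.28 (SE 0.21, interval -0.22 to 0.79, adjusted p = 0.70). On that probe set the Cdk6 difference was not shown to depend on p53. The other Cdk6 probe sets, also on both array types, changed by -0.58 and -0.60 after Twist1 deletion. After Twist1/p53 deletion they changed by -0.09 and -0.13, in the same order, and they were not put through this test. For Ccnd2 the changes of 0.96 and 1.48 differed by 0.52 (SE 0.70, interval -1.13 to 2.17, adjusted p = 0.85), which leaves room for a difference in either direction. Ccne2 differed by 0.52 (SE 0.36, adjusted p = 0.68) and Cdkn2b by -0.40 (SE 0.25, adjusted p = 0.64).

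Other genes of the G1/S pathway, with mitosis genes as a readout of proliferation, were read from 6 lists with 78 measured genes. When the lists were chosen, lower replication and mitosis genes after Twist1 deletion were already known. The Twist1 counts below partly restate that result. In limma none of the 78 was called after Twist1 deletion and none of the 76 tested after Twist1/p53 deletion. Means were lower for 65 of 78 after Twist1 deletion, against 54.2% of all genes, and 21 of them stood at an unadjusted p under 0.05, all lower, where 9.17% of all genes stood at such a p in either direction. With both genes deleted 46 of 76 were lower, against 53.1%, and 7 stood at an unadjusted p under 0.05, of which 6 were lower, beside 21.2% of all genes, so their share is under the background. Without Twist1/p53 deletion array 2, 31 of 76 were lower and 45 higher. In the same Twist1 arrays the poly-A spike-in, Gapdh and beta-actin measures given above separated the groups, and their part in these counts was not tested.

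Among the other kinases and inhibitors of the step, 6 of 9 were lower after Twist1 deletion (median -0.30) and 7 of 8 after Twist1/p53 deletion (median -0.19). Cdkn2d, which encodes the INK4 inhibitor p19, was lowest by moderated t in both: it read 8.82 and 8.87 against 7.83 and 8.21 (log2 difference -0.82, SE 0.19, limma adjusted p = 0.45), and 7.20 and 7.01 against 6.51 and 6.50 (-0.60, SE 0.15, adjusted p = 0.14). Both deletion arrays were below both controls each time. Cdkn1a, which encodes the p53-induced inhibitor p21, was at 11.30 and 11.33 against 11.79 and 11.41 in the Twist1 table, higher in both deletion arrays (0.28, SE 0.16, adjusted p = 0.62), and level with its controls in the Twist1/p53 table (-0.02, SE 0.06, adjusted p = 0.87). Cdk2, the partner of the E-type cyclins, overlapped in both, with differences of -0.22 (SE 0.22) and -0.06 (SE 0.27). Ccnh, a subunit of the kinase that activates CDKs, was highest by moderated t in the Twist1/p53 comparison at 0.01 (SE 0.12).

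Of the 13 pocket protein, E2F and DP genes, which the cyclin D kinases act on, 12 were lower after Twist1 deletion (median -0.25) and 6 after Twist1/p53 deletion (median 0.05). The Twist1 median was -0.41 without deletion array 1 and -0.07 without deletion array 2, with 11 and 10 of 13 lower. Without either Twist1/p53 control 8 of 13 were lower (medians -0.03 and -0.05), and without Twist1/p53 deletion array 1 the number was 7 (median -0.03). E2f7, a repressor E2F, was at 9.31 and 9.03 against 8.74 and 8.47 after Twist1 deletion, with no overlap (-0.57, SE 0.18, limma adjusted p = 0.52), and E2f4 was level (0.00, SE 0.17). E2f2, an activator E2F, was at 8.12 and 7.98 against 7.21 and 6.46 after Twist1/p53 deletion, again without overlap (-1.22, SE 0.29, adjusted p = 0.12). E2f3 was higher there by 0.27 (SE 0.15, adjusted p = 0.37).

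The S-phase genes that E2F drives had lower means after Twist1 deletion in 19 of 19 cases (median -0.36) and after Twist1/p53 deletion in 11 of 19 (median -0.07). Ccna2, the cyclin of S phase, was at 10.37 and 10.47 against 9.90 and 9.83 in the Twist1 table (-0.56, SE 0.12, limma adjusted p = 0.44), and Pcna, the replication clamp, overlapped (-0.10, SE 0.14). Mitosis genes, a readout of proliferation, were lower in 11 of 11 cases (median -0.37) and 8 of 11 (median -0.05). The lower direction of both lists after Twist1 deletion was known when they were chosen. Nusap1, a spindle protein, differed by -0.69 (SE 0.14, adjusted p = 0.43) and Foxm1, a transcription factor of mitosis, by -0.05 (SE 0.17). Under quantile normalization 10 of 11 mitosis genes were lower, and without deletion array 2 of the Twist1 table the counts were 16 of 19 and 8 of 11.

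In the Twist1/p53 table these lists depended on the deletion array. Without deletion array 1, 10 of 11 mitosis genes were lower (median -0.25), and without deletion array 2, 10 of 11 were higher (median 0.08). The S-phase medians were -0.27 and 0.16 in the same order. Mki67, the common proliferation marker, was at 9.58 and 9.67 against 9.46 and 9.19 (-0.30, SE 0.14, limma adjusted p = 0.30) and Bub1, a spindle checkpoint kinase, differed by 0.15 (SE 0.18). Among the S-phase genes Mcm7, a helicase subunit, differed by 0.21 (SE 0.12) and Rrm1, part of the enzyme that makes deoxyribonucleotides, by -0.26 (SE 0.13).

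Parts of the ubiquitin ligases that degrade G1 cyclins and CIP/KIP inhibitors were lower in 11 of 14 cases after Twist1 deletion (median -0.09) and in 9 of 13 after Twist1/p53 deletion (median -0.13). With 1 array left out the Twist1 counts ran from 9 to 12 and the Twist1/p53 count was 9 each time. Ambra1, the substrate receptor through which CUL4 ligases degrade the D-type cyclins, was at 7.53 and 7.74 for Twist1 controls and 6.71 and 6.27 after deletion (log2 difference -1.14, SE 0.22, limma adjusted p = 0.41). In the Twist1/p53 arrays Ambra1 was at 6.57 and 6.70 against 6.34 and 6.36 (-0.28, SE 0.15, adjusted p = 0.35). Both deletion arrays were under both controls each time. Fbxw7, the receptor for cyclin E and MYC, had the lowest moderated t after Twist1/p53 deletion, at 9.77 and 9.43 against 8.99 and 8.84 (-0.69, SE 0.16, adjusted p = 0.11), and was also lower in both Twist1 deletion arrays (-0.59, SE 0.16, adjusted p = 0.50). Skp1, the adaptor that links such receptors to cullin 1, differed by 0.15 (SE 0.12) after Twist1 deletion, and Cks1b, a cofactor for p27 degradation, by 0.17 (SE 0.07) after Twist1/p53 deletion.

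Regulators of G1 cyclin and inhibitor transcription split evenly, with 6 of 12 lower after Twist1 deletion (median 0.01) and 5 of 12 after Twist1/p53 deletion (median 0.06). Without Twist1 deletion array 1 the number was 9 of 12 (median -0.03), and without Twist1/p53 deletion array 2 it was 3 of 12. Myc, which can induce Ccnd2 and Cdk4, was at 9.65 and 9.86 against 10.01 and 10.32 in the Twist1 table, higher in both deletion arrays (0.41, SE 0.17, limma adjusted p = 0.56). In the Twist1/p53 table Myc had a lower mean after deletion, at 9.53 and 9.45 against 9.47 and 9.16, with overlap (-0.18, SE 0.14, adjusted p = 0.55). Bmi1, a Polycomb protein that represses INK4 genes, was lower after Twist1 deletion, at 9.04 and 9.26 against 8.60 and 8.80 (-0.45, SE 0.16, adjusted p = 0.54). With p53 deleted too Bmi1 was higher, at 7.23 and 7.02 against 8.07 and 7.55 (0.69, SE 0.23, adjusted p = 0.19). The Bmi1 groups overlapped in neither table. Mycl, a relative of Myc, came closest to the threshold of all genes on these lists in the Twist1/p53 comparison, at 6.17 and 6.09 against 5.37 and 5.36 (-0.77, SE 0.13, adjusted p = 0.075). Those Mycl values lie within the range of the nonspecific control probe sets given above.

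**Figure D4:**
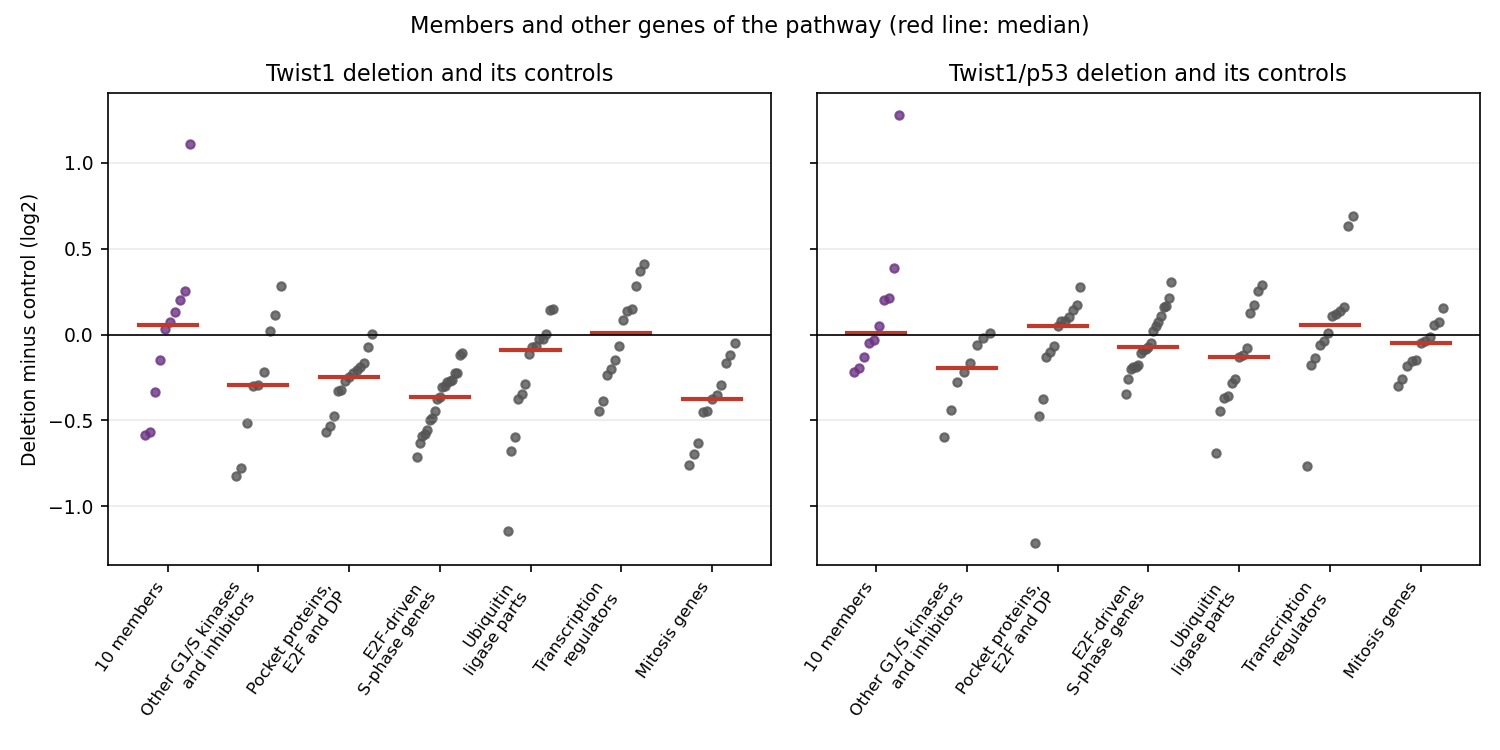
Deletion minus control (log2, vertical axis) of each gene tested, for the Twist1 comparison on the left and the Twist1/p53 comparison on the right. The 10 members are purple, and 6 lists of other G1/S genes and mitosis genes are grey (horizontal axis), with a red line at each median. All 19 S-phase and 11 mitosis genes lie under 0 on the left, with medians of -0.36 and -0.37, a direction known when the lists were chosen. On the right their medians are -0.07 and -0.05. No gene shown was called.

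The cell makeup of the sorted samples was read from marker lists. Epcam, on which the cells were sorted, was higher in the deletion arrays of both comparisons, at 10.82 and 11.62 against 10.38 and 10.54 and at 10.95 and 11.01 against 10.42 and 10.46. The basal keratinocyte markers, 5 of 5 measured, were bright in every array, with a summed level (the log2 of the sum of unlogged values) of 15.30 and 15.22 for Twist1 controls and 14.87 and 15.11 after deletion. The 4 arrays of the Twist1/p53 table lay between 14.20 and 14.27. Of the 5 basal markers, 3 were lower without overlap and 0 higher after Twist1 deletion. After Twist1/p53 deletion 0 were lower and 2 higher without overlap. The 6 measured markers of differentiated keratinocytes, cells that have left the cycle in normal skin, were lower in sum in both deletions. They summed to 14.35 and 13.38 against 14.54 and 14.49 and to 13.00 and 13.94 against 14.30 and 14.36. Without overlap, 3 of the 6 were lower and 1 higher after Twist1 deletion, and all 6 were lower after Twist1/p53 deletion. The shares of all genes tested were 24.7% lower and 17.9% higher in the Twist1 comparison, and 29.8% and 24.5% in the Twist1/p53 comparison. Of the 7 fibroblast markers, 5 were lower without overlap after Twist1/p53 deletion and 1 was higher, with a sum of 10.34 and 8.40 against 11.05 and 11.24, and Pdgfra, the gene of the sort marker CD140a, was under the filter level. Of the 10 measured leukocyte markers, 3 were higher and 2 lower without overlap in that table, near the shares of all genes. They summed to 8.94 and 9.40 against 8.33 and 8.37, and Ptprc, which encodes CD45, was under the filter level in both tables. In the Twist1/p53 comparison 1 differentiated keratinocyte, 1 fibroblast and 1 leukocyte marker had a limma adjusted p under 0.05, where 1.8% of all genes did. After Twist1 deletion the sums of the fibroblast and leukocyte lists overlapped their controls, and those of the endothelial, melanocyte and muscle lists were slightly higher. Under the filter level there were 4 of the 6 endothelial, 1 of the 5 melanocyte and 3 of the 6 muscle markers. The 6 endothelial markers summed to 7.46 and 7.47 against 7.37 and 7.32, the 5 melanocyte markers to 7.63 and 7.82 against 7.46 and 7.60, and the 6 muscle markers to 7.84 and 7.89 against 7.75 and 7.71. After Twist1/p53 deletion the endothelial sum was 7.04 and 7.11 against 7.17 and 7.47, the muscle sum 6.91 in both arrays against 6.93 and 6.96, and the melanocyte sum overlapped. The part of these cell types in the Ccnd2 and Cdk6 differences was not tested.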

How the data were processed

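Total RNA of 8 samples in 4 groups of 2 was measured on Affymetrix mouse arrays. The authors deposited log2 expression values, 1 per probe set and array, in 2 tables of 4 arrays; the log2 scale was read from the values, and no source used here names the software behind them. Gene symbols came from the platform annotation, updated by Entrez number. The probe set with the highest mean stood for a gene, and genes under the 20th percentile were left out. Each deletion was compared with its controls by lmFit and eBayes with an intensity trend (limma 3.58.1, R 4.3.3), called at a Benjamini-Hochberg adjusted p under 0.05 over all genes. The difference between deletions was fitted over 8 arrays on probe sets matched by identifier, and every probe set was fitted in a further run. The fits were tested on simulated data.

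The members and lists were chosen with earlier results of these data known, among them the lower replication and mitosis genes after Twist1 deletion. All members are named, with Cdk2, Cdkn1a, Twist1, Xist and Eif2s3y, and of each list the genes with the highest and lowest moderated t. Epcam, Ptprc and Pdgfra are named as markers used in the sort. The p53 gene's own level is left out. Same-numbered arrays did not deviate together (correlation over genes 0.03 and -0.02), so the numbers were not used to pair samples. The number of arrays limits the precision.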

Additional observations from a re-analysis of the deposited data

How the results depend on the processing

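Alternatives were quantile normalization, median centring, other filters, probe set rules and thresholds, fits without the trend or robust, a rescaled table for the difference, and each array left out, where a lone array is assumed to vary like the other group. No setting but leaving out a Twist1/p53 deletion array called a member: 4 without array 1 and 3 without array 2, so the count there ran from 0 to 4. In those fits 27.6% and 24.6% of all genes were called, so the counts are near the background. With the mean over probe sets, Ccnd3 turned to 0.014 after Twist1 deletion and Cdkn1b to -0.083 after Twist1/p53 deletion.

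Genes called after Twist1 deletion (5) were 1 with a filter at the 50th percentile, 3 with probe set means, 9 with every probe set, 2 without X and Y genes, 8 at adjusted p under 0.1 and 0 to 56 with an array left out. After Twist1/p53 deletion (246) they were 859 at adjusted p under 0.1 and 0 to 3775 with an array left out. For the difference (23) they were 46 and 10 to 144. Each count of 0 came with a control left out, with 523 to 559 and 1027 to 1141 genes at an unadjusted p under 0.05 in limma. With the replicate number as a block the counts were 0 (1234 at an unadjusted p under 0.05), 4 and 6, and the replicate block changed no call of a member. With that block Ccnd2 had a limma adjusted p of 0.097 after Twist1/p53 deletion, beside 0.26 without it.

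With an array left out, signs turned within these ranges. After Twist1 deletion they were -0.049 to 0.12 for Cdk4, -0.29 to 0.44 for Cdkn1b and -0.52 to 0.22 for Ccne1. After Twist1/p53 deletion they were -0.47 to 0.40 for Ccnd1, -0.15 to 0.043 for Ccne2, -0.027 to 0.13 for Cdk4, -0.013 to 0.41 for Cdkn1b and -0.51 to 1.28 for Cdkn1c. For the difference they were -0.69 to 0.18 for Ccnd1, -0.083 to 1.13 for Ccnd2, -0.41 to 0.35 for Ccne1, -0.11 to 0.054 for Cdk4, -0.24 to 0.49 for Cdkn1b and -0.76 to 1.03 for Cdkn1c. The list counts under other scalings and without single arrays were added after seeing the data. Causes were not tested.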
